A study of Mus musculus with 52 samples.

Results

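The regions described here are 383 stretches of open chromatin that appeared in the pituitary endothelium of beta-catenin stabilized mice. Open chromatin was measured with ATAC-seq, in which a transposase cuts and tags accessible DNA, and the peak lists of 12 libraries were compared. A peak was kept when its fold enrichment over the local background was over 2, its −log10 q was over 2 and it did not lie on the mitochondrial chromosome. A region was a member when kept peaks of all 4 stabilized pituitary libraries overlapped by at least 1 bp once merged, and no kept peak of the 6 WT libraries touched it. Merging the 4 stabilized pituitary libraries gave 50829 regions, of which 24233 had peaks in all 4, and 383 of these met the second condition. For comparison, a separate merge of all 12 libraries gave 66740 regions, called all regions here. At the other end, 13795 of the 24233 also had a peak in all 6 WT libraries. The members were chosen by the fold enrichment and q of the peaks in these 10 libraries, so their fold enrichments are given as a description with no test.

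The study asked how canonical Wnt signaling in endothelial cells (ECs) sets the difference between the tight vessels of most of the brain and the leaky, fenestrated vessels of the circumventricular organs. WT mice carried Tie2-GFP, which marks ECs with GFP. Beta-catenin stabilized mice carried Tie2-GFP, Pdgfb-CreER and BcatEx3fl, in which endothelial Cre removes the exon that marks beta-catenin for degradation, and received 100 µg of 4-hydroxytamoxifen (4HT) at postnatal day 10. GFP-positive cells were sorted from cerebellum (C), anterior pituitary (AP) and posterior pituitary (PP) for ATAC-seq and RNA-seq, with 2 libraries per tissue and genotype in each assay. Each pituitary library pooled 20 to 30 male mice between postnatal days 30 and 90. Both lobes were dissected from the same pooled mice, so AP and PP are not independent samples. WT mice also lacked the Cre allele and 4HT, so the stabilized allele cannot be told apart from those in any comparison of the sorted cells. GFP-negative cells from the same tissues were sequenced too. In a second experiment, ribosome-bound RNA was pulled down from ECs of choroid plexus and cortex in RiboTag; Pdgfb-CreER mice with and without BcatEx3fl, again with 2 libraries per group. One stabilized AP RNA library, replicate 2, was named anterior in its title and posterior in its tissue label, and it was used as anterior. It held 2676 TPM of growth hormone (Gh) and 746 TPM of prolactin (Prl), made by cells of the anterior lobe, against 2852 to 3698 and 502 to 1937 TPM in the other AP libraries and at most 11.0 and 3.42 TPM in PP libraries.

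In canonical Wnt signaling, Frizzled and LRP5/6 receptors at the membrane keep beta-catenin from being destroyed, and beta-catenin then enters the nucleus and binds DNA through transcription factors of the TCF/LEF family. TCF/LEF proteins recognise short stretches close to CTTTGAT or CTTTGAA. In brain ECs the pathway induces its own inhibitors, such as Nkd1 and Axin2, together with barrier genes such as the glucose transporter Slc2a1 (GLUT1). The vessels of both pituitary lobes normally lack that program, which lets hormones pass between blood and gland.

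Below are 9 windows from members, each of 201 bp around the summit of the peak with the highest fold enrichment among the 4 libraries. They are read from the plus strand of the RefSeq GRCm38.p6 genome (GRCm38/mm10, the build of the peak lists). Capitals mark the letters ATCAAAG or TTCAAAG on either strand, which read CTTTGAT or CTTTGAA on the other. The Efhd1 and Zc3h12c windows belong to the 10 members with the highest lowest fold enrichment over the 4 libraries, and the Zc3h12c window holds 2 matches. The Chl1 and Snx13 windows, also among the 10 and each with a match, are not printed. The Slc2a1 and Col18a1 windows lie near genes whose RNA was higher in stabilized ECs of both lobes, and the Sgms1 window near a gene whose estimated counts, but not TPM, were higher in PP, and the 3 Nr3c2 windows come from members in introns of one gene, each with a match. A match is a run of letters and not a measured binding site.
Efhd1, intron, chr1:87281826-87282026: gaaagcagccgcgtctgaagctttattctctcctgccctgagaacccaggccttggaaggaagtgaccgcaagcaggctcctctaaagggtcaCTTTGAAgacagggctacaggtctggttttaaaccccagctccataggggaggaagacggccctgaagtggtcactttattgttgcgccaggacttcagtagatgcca
Zc3h12c, outside genes, chr9:52259619-52259819: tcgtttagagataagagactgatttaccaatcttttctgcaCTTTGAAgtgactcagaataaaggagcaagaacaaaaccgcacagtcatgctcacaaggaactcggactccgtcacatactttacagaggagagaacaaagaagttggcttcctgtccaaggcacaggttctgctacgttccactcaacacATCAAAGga
Slc2a1, intron, chr4:119126012-119126212: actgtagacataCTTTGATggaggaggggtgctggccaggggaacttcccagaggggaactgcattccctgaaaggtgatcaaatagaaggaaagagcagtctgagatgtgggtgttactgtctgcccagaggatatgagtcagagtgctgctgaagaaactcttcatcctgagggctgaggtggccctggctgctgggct
Sgms1, intron, chr19:32223832-32224032: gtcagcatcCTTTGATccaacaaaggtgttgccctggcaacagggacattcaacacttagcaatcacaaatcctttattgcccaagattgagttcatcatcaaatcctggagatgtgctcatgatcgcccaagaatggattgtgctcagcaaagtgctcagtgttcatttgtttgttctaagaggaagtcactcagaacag
Col18a1, intron, chr10:77134554-77134754: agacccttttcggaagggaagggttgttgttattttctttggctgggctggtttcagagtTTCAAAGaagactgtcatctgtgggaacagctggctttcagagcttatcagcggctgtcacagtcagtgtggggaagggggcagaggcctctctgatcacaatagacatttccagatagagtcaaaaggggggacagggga
Col18a1, upstream, chr10:77203896-77204096: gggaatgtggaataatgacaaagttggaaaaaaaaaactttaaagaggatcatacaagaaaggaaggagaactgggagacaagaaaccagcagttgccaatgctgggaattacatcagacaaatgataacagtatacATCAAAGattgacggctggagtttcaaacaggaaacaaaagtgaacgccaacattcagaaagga
Nr3c2, intron, first member, chr8:76970805-76971005: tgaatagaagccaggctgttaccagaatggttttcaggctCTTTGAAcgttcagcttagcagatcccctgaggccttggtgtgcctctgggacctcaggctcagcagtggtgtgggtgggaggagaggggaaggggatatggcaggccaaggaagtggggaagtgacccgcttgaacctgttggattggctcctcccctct
Nr3c2, intron, second member, chr8:77067016-77067216: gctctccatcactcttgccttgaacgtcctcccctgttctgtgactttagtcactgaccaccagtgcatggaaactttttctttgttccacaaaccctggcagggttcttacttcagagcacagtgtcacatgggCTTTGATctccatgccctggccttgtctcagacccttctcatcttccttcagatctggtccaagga
Nr3c2, intron, last member, chr8:77068818-77069018: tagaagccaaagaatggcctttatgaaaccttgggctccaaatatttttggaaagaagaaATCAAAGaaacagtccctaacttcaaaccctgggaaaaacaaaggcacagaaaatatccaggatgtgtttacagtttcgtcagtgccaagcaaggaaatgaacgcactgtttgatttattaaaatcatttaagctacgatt

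The members had a lower median height than all kept peaks in 3 of the 4 stabilized pituitary libraries. Their fold enrichment had a median of 5.19 (range 2.08 to 15.7) in AP replicate 1 and 5.72 (2.11 to 16.1) in AP replicate 2. In PP replicate 1 it was 4.34 (2.51 to 16.1) and in PP replicate 2 it was 4.44 (2.25 to 11.6). The medians over all kept peaks of the same libraries were 6.31, 6.76, 5.86 and 4.45, which is level with the members in PP replicate 2. Both AP values exceeded both PP values in 164 members and the reverse held in 32. Just inside the threshold, a member at chr8:111743097-111743397 had a lowest fold enrichment of 2.08. Just outside it, a region starting at base 71622672 of chromosome 9 was left out by a −log10 q of 1.97 in one library at a fold enrichment of 2.85. In 13 members a WT library had a deposited peak that did not reach the thresholds, with fold enrichments up to 2.84. Libraries differed in the number of kept peaks, from 20634 in WT PP replicate 2 to 45040 in WT AP replicate 2, and 2 of them set much of the list. Without stabilized PP replicate 1 the rule gave 1258 regions, and without WT AP replicate 2 it gave 919. The part of peak-calling depth in membership was not tested.

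**Figure D1:**
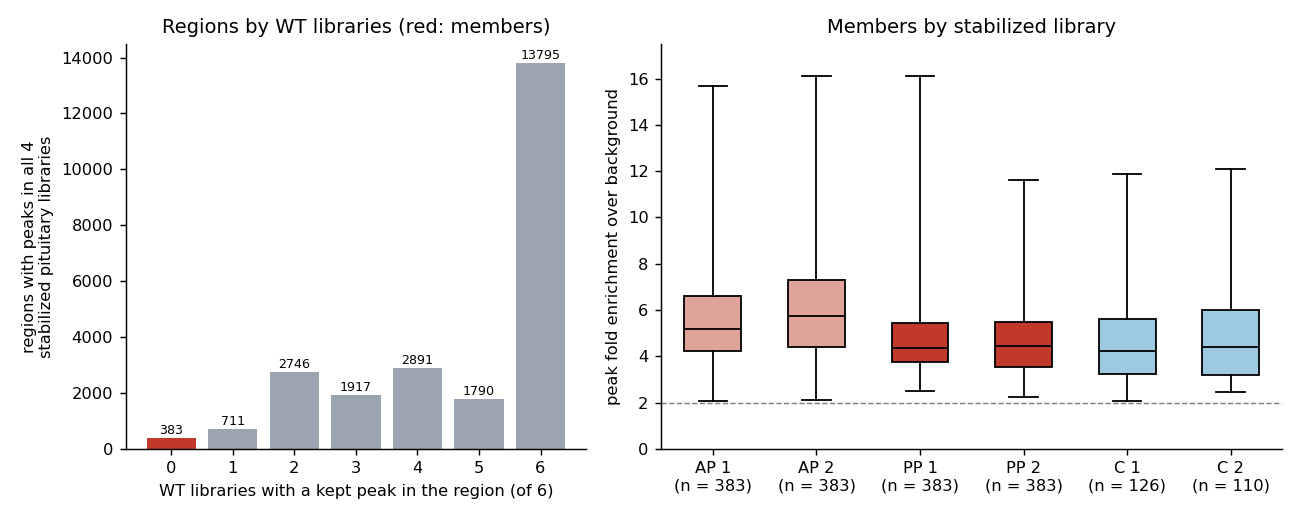
Left, regions with peaks in all 4 stabilized pituitary libraries by the number of WT libraries with a kept peak, with the 383 members in red. Right, fold enrichment over local background of the members in each stabilized library, with boxes for the quartiles and median, whiskers to the lowest and highest member and a dashed line at the threshold of 2; medians run from 4.34 to 5.72 in the pituitary libraries, and 126 and 110 members have a kept peak in C.

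Among the members, the strongest 10 by lowest fold enrichment lay near genes of unrelated kinds. The first was in an intron of Efhd1, which encodes a mitochondrial calcium-binding protein, at chr1:87281583-87282390, with fold enrichments of 9.22 and 10.3 in AP and 10.6 and 8.99 in PP. It had no kept peak in stabilized C, and its TCF/LEF letters were centred 4 bp before the summit. Another of the 10 was at the promoter of Ifi204, an interferon-induced gene of the p200 family, at chr1:173766564-173767414, with 15.7 and 15.1 in AP and 8.25 and 11.6 in PP. It had weaker peaks of 3.35 and 4.63 in stabilized C. A member outside genes, upstream of Zc3h12c (-91147 bp from its start), had 8.05 and 10.1 in AP, 8.60 and 7.71 in PP, and 3.11 and 4.51 in stabilized C. Plekha5 was the one gene among the 10 whose intronic member was as strong in C, with 9.85 and 8.82 against 7.56 and 9.52 in AP and 8.30 and 7.88 in PP. Of the 10 members, 4 held TCF/LEF letters within 100 bp of the summit, near Efhd1, Chl1, Zc3h12c and Snx13. The other 6 were nearest to Gm42372, Ifi204, Plekha5, Pla2g5, Trak2 and Grhl2. The match near Chl1 lay at the end of a long run of repeated CTGT and CTTT letters. Of the 10 nearest genes, 9 were tested between stabilized and WT ECs (Grhl2 had too few counts), and none of the 9 was called in either lobe. Efhd1 RNA was 11.5 and 3.98 TPM in WT AP, 23.4 and 26.0 in stabilized AP, 1.80 and 5.89 in WT PP and 46.2 and 49.3 in stabilized PP. Stabilized values did not overlap WT in either lobe, but edgeR gave adjusted p = 0.698 in AP and 0.116 in PP.

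Members lay away from gene starts. Only 34 of 383 (8.88%) had their summit within 1 kb of a start of transcription, against 25.1% of all 66740 regions and 71.8% of the 13591 regions with peaks in all 12 libraries. Of the rest, 168 (43.9%) were in introns, 168 (43.9%) outside genes and 13 (3.39%) in exons. The median distance to the nearest start was 17594 bp, against 10696 bp over all regions, and 85.6% lay within 100 kb of one. This place was not particular to the members. Of 528 regions open in both stabilized AP libraries and no other library, 8.52% lay within 1 kb of a start, with a median distance of 18033 bp. The matching 159 PP regions had 12.6% and 13214 bp. Median length of the members was 544 bp, and median GC content of the 201 bp window around their summit was 50.7%. They were spread over the genome, with at most 32 on any chromosome (chromosome 2) and 2 on X. With gaps of up to 100 kb, 303 members stood alone, 32 stretches held 2 and 5 held 3 or more. The fullest stretch, chr6:55210540-55257288 at Mindy4, held 4 members and no TCF/LEF letters. Stretches of 3 lay at Asb13 and Calml3, Nr3c2, Col18a1 and Tnfrsf1b, and of these only Nr3c2, which encodes the mineralocorticoid receptor, had letters in all 3.

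TCF/LEF letters (ATCAAAG or TTCAAAG) lay within 100 bp of the summit in 109 of 383 members (28.5%), and 22 members (5.74%) held 2 or more. The same letters in windows of the same length were found in 7.89% of all regions and in 3.31% of regions with peaks in all 12 libraries. Regions open in both stabilized AP libraries and no other library held them in 14.6% of 528, and the matching PP regions in 18.2% of 159. The 71 regions with peaks in the 4 WT pituitary libraries and no stabilized one held them in 1.41%. A median of 82.6% of the bases in their windows were repeat-masked, however. AT-rich letters are commoner in AT-rich DNA, so the shares were also set side by side within bins of GC content. Between 40 and 50% GC, 36.6% of 153 members held the letters against 12.7% of all regions. Between 50 and 60% GC, 21.1% of 194 members held them against 1928 of 27538 regions. In 4 classes of about equal size from the weakest to the strongest mean fold enrichment the share was 25.0%, 32.3%, 25.3% and 31.2%, with no order, and the median of that mean was 5.09 in members with the letters and 5.10 in those without. Introns held them in 31.5% of members, sites outside genes in 28.0% and promoters in 17.6%. The share was 14.5% for the list made without stabilized PP replicate 1 and 16.5% for the list without WT AP replicate 2, both still above that of all regions.

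The matches in members lay on both sides of the summit. The 132 matches in members amounted to 34.5 per 100 members, against 8.61 per 100 over all regions. In steps of 20 bp, members held between 1.83 and 4.96 matches per 100. The highest values were 20 to 60 bp before the summit and the lowest 60 to 80 bp after it. Before and after the summit are read along the plus strand throughout, whatever the strand of the gene or the letters. A step held only 7 to 19 matches in members. All regions held between 0.676 and 0.947 per 100 in the same steps.

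**Figure D2:**
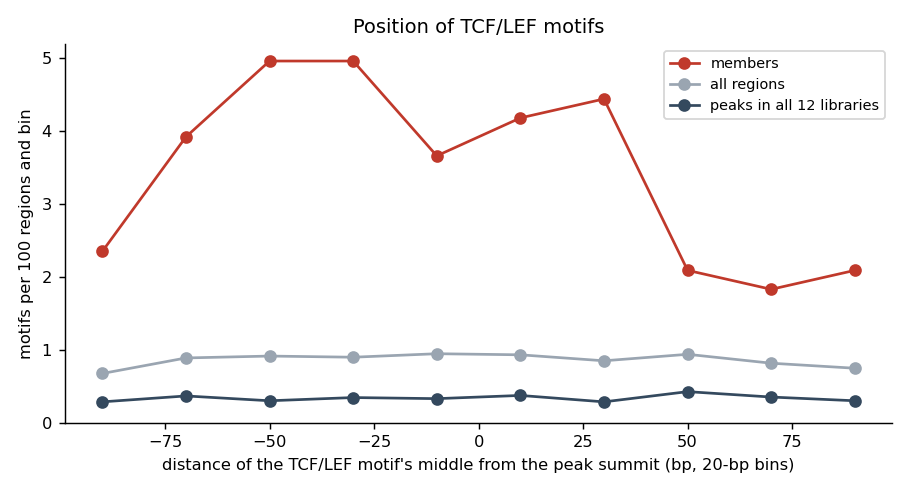
Matches to the TCF/LEF letters per 100 regions in steps of 20 bp around the summit, one line each for the members, all regions and regions with peaks in all 12 libraries. The line of the members lies above the others at every step, between 1.83 and 4.96 matches per 100.

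Other letters set members apart less, or in the other direction. AP-1 letters (TGACTCA) were found in 15.1% of members and 10.1% of all regions, RUNX letters (TGTGGTT) in 6.79% and 3.87%, GATA letters (AGATAA) in 9.40% and 6.70%, and SOX letters (ACAATGG or ACAATAG) in 8.36% and 6.05%. ETS letters (AGGAAG), bound by a family that ECs use widely, were in 43.9% and 40.4%, and a longer ETS form (CCGGAAG) in 2.09% and 6.24%. FOX (TGTTTAC) gave 3.13% and 3.57%, TEAD (GGAATG) 12.3% and 11.1%, nuclear receptor letters (AGGTCA) 16.4% and 14.8%, and the E-box CAGCTG 16.7% and 15.5%. Lower in members were KLF/SP letters (GGGCGG or CCACCC) with 24.0% against 37.9%, ZIC letters (CAGCAGG) with 8.36% against 11.1%, and a CTCF core (AGGTGGCA) with 0.522% against 2.08%. KLF/SP letters were in 69.6% of regions open in all 12 libraries, of which 71.8% were at promoters. All letters were searched on both strands in the same 201 bp windows. With every 7-letter word counted instead of a chosen list, the word with the largest gain in share was TTCAAAG, with 18.3% of members against 4.66% of all regions. It was followed by words that overlap it or ATCAAAG by most of their letters, such as CTTCAAA with 14.4% against 3.76%, and ATGAAAG held 11.2% against 3.03%.

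**Figure D3:**
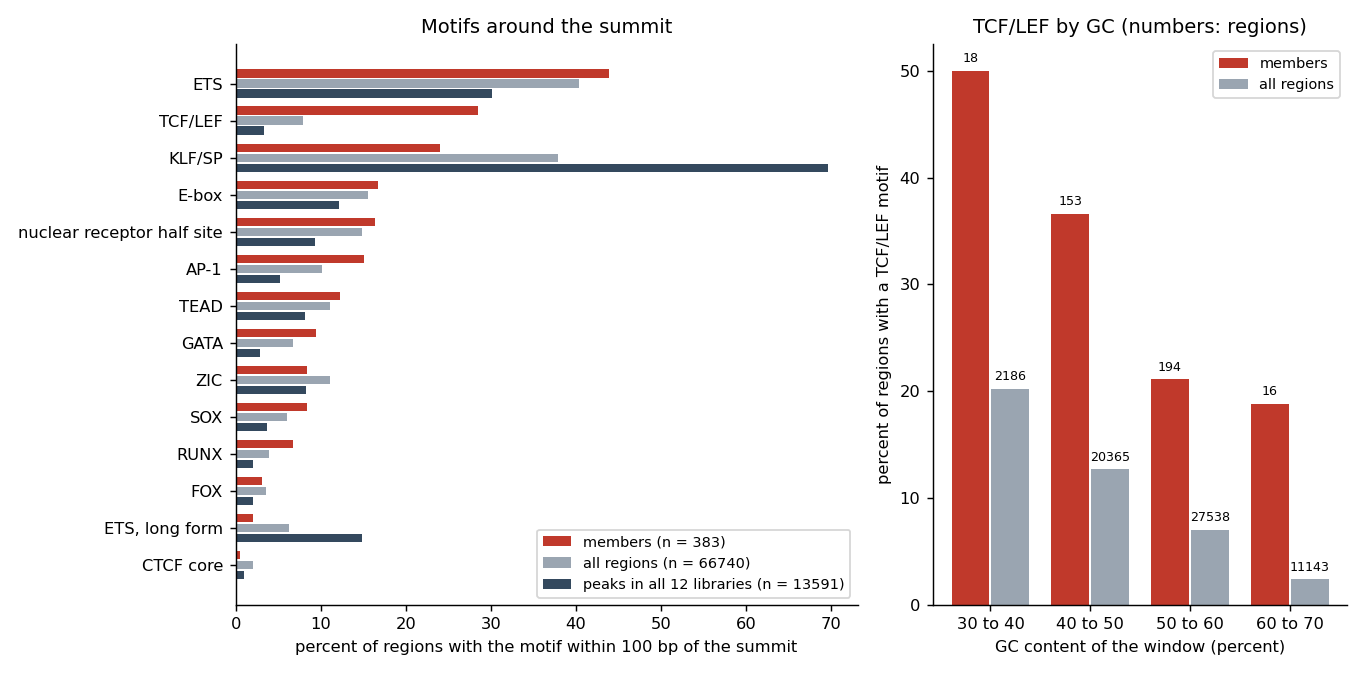
Left, percent of 201 bp windows holding each set of letters, for the members, all regions and regions with peaks in all 12 libraries; TCF/LEF letters are in 28.5%, 7.89% and 3.31%, and KLF/SP letters run the other way with 24.0%, 37.9% and 69.6%. Right, percent with TCF/LEF letters in members and all regions by GC content, with the number of regions above each bar, where members lie above all regions in each of the 4 bins shown.

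Presence in stabilized cerebellum was not part of the rule. Of 383 members, 100 (26.1%, 95% Wilson interval 22.0 to 30.7%) had a kept peak in both stabilized C libraries, 36 in one and 247 in neither. Interval widths cover counting error over regions only. The median fold enrichment of those peaks was 4.24 in C replicate 1 and 4.39 in C replicate 2. Regions in all 4 stabilized pituitary libraries that had a WT pituitary peak but no WT C peak were present in 24.3% of 4549, close to the members' share. Regions in both stabilized AP libraries but not both PP libraries, with no WT peak, were present in 7.31% of 1559, and those in both PP but not both AP in 26.3% of 395. Within the members, presence was 24.0%, 18.8%, 15.8% and 45.8% in the 4 classes from the weakest to the strongest mean fold enrichment. It was 28.4% in members with TCF/LEF letters (31 of 109) and 25.2% in those without (69 of 274), and 32.4% at promoters against 23.2% in introns. Without stabilized PP replicate 1 the longer list was present in 12.4%, and the share ranged up to 35.0% without WT C replicate 1.

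**Figure D4:**
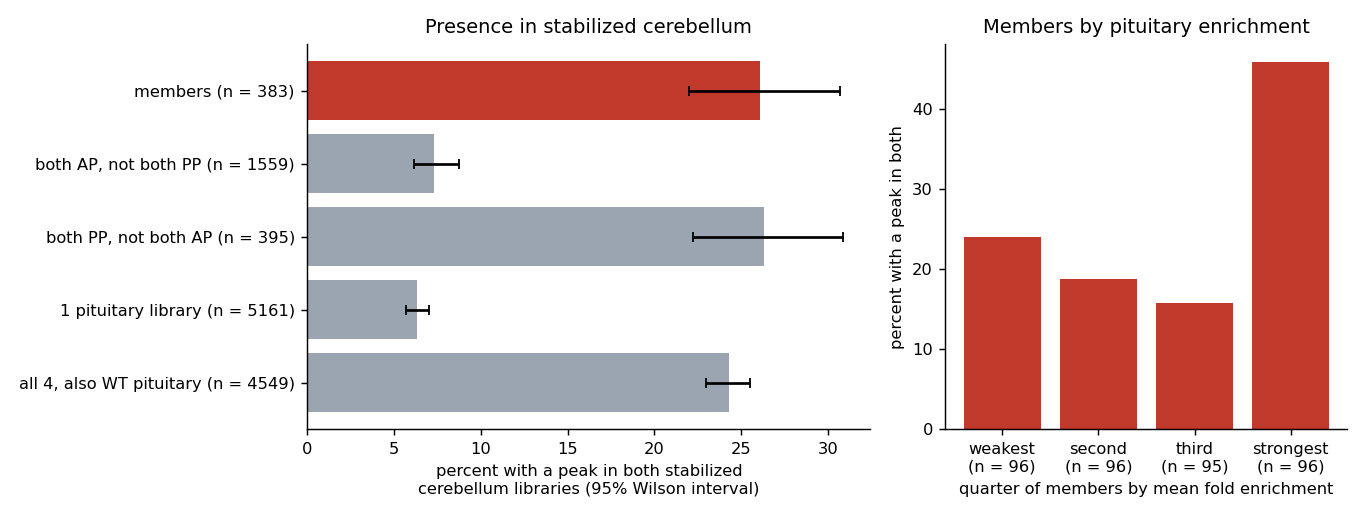
Left, percent of regions with a kept peak in both stabilized cerebellum libraries, for members and comparison sets, with 95% Wilson intervals; members (26.1%) lie beside regions that also had a WT pituitary peak (24.3%) and above regions of both AP but not both PP libraries (7.31%). Right, the same share in 4 classes of members of about equal size by mean pituitary fold enrichment, highest in the strongest class (45.8%).

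RNA of genes near members was compared between stabilized and WT ECs. A gene was near when a member touched its body widened by 100 kb on each side, and it was called when edgeR's quasi-likelihood test gave an adjusted p under 0.05 over all genes tested and a fold of at least 2. Replicates were separate pools of mice, and p-values with 2 per group measure only the spread between these libraries. In bulk RNA, fewer cells of a type and less RNA per cell cannot be told apart. There were 2232 genes near a member, of which 1102 passed the filter on low counts among 17915 tested. Some of these passed only because stabilized libraries had counts.

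Genes near members were called higher more often than genes at large in both lobes. In AP, 15 of 1102 (1.36%) were called higher against 0.441% of all genes tested. In PP, 38 (3.45%) were called higher against 1.25%. Those called higher in both lobes numbered 12 (1.09%) against 0.296%. Seen from the other side, 15 of the 79 genes called higher in AP (19.0%) and 38 of the 224 in PP (17.0%) had a member near them, so most genes called higher in either lobe had none within 100 kb. Genes near 1 member were called higher in PP in 2.89% of 1002 and genes near 2 in 8.89% of 90. The shares with and without TCF/LEF letters were close, with 3.24% of the 247 genes near a member with letters called higher in PP and 3.73% of the 884 near a member without. Of the 383 members, 49 (12.8%) lay near a gene called higher in either lobe, against 5.26% of all 66740 regions. In AP none was called lower, against 0.0167% of all genes, while 20 (1.81%, against 1.66% of all genes) had an unadjusted p under 0.05 in that direction and DESeq2 called 1. In PP, 5 (0.454%) were called lower against 0.541%. The number higher in AP was 21 without the replicate whose labels disagree and went to 29 without stabilized AP replicate 1, and that in PP to 75 without WT PP replicate 1. The share near members exceeded the share of all genes in 9 of 9 alternative fits for each lobe.

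GFP-negative cells of the same lobes gave few calls. In AP 1 of 1166 genes near members (0.0858%) was called higher, against 0.0357% of all 19612 tested. In PP none was, against 0.0867%, and 84 (7.20%) had an unadjusted p under 0.05 against 6.45% of all genes. The same share in AP was 3.69% (43 genes) against 3.63%.

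Wnt feedback and barrier genes were among the genes higher in both lobes. Nkd1, which binds Dishevelled and dampens Wnt signaling, was at 0.0393 and 0 TPM in WT AP and at 6.76 and 12.6 TPM in stabilized AP. In PP it was at 1.80 and 0.0129 TPM in WT and at 27.7 and 40.1 TPM in stabilized ECs. Stabilized libraries were above WT in each lobe without overlap. Such an order of the TPM held for 25.8% of all genes tested in AP and 13.2% in PP. In WT C Nkd1 was at 27.5 and 23.2 TPM. The AP difference rests on 2 counts in the WT libraries, a count ratio of 970 (exact 95% interval 268 to 8019, edgeR adjusted p = 0.000864), and the PP log2 fold change was 7.56 (SE 0.840, edgeR adjusted p = 0.000544). The PP value was 11.51 without WT replicate 1 and 6.75 without WT replicate 2. Its 2 members lay at -73796 and 147581 bp from its start.

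Slc2a1 had a member in an intron, 17401 bp past its start at chr4:119125566-119126327, with fold enrichments of 5.54 and 7.39 in AP and 3.73 and 3.60 in PP and with TCF/LEF letters centred 85 bp before the summit (printed above). Slc2a1 RNA was at 10.8 and 16.7 TPM in WT AP, 34.7 and 76.5 in stabilized AP, 21.1 and 24.8 in WT PP and 511 and 511 in stabilized PP. Every stabilized value was above every WT value of its lobe, and all stayed below the 1579 and 1625 TPM of WT C. The log2 fold change was 1.88 (SE 0.334, edgeR adjusted p = 0.0285) in AP and 5.78 (SE 0.396, edgeR adjusted p = 1.61e-05) in PP. The AP call was lost without WT AP replicate 2, where the log2 fold change was 1.74.

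Reck, a membrane-anchored protein that helps ECs sense Wnt7a and Wnt7b, rose from 1.36 and 1.32 to 5.68 and 5.92 TPM in AP and from 6.92 and 5.75 to 20.3 and 17.3 TPM in PP. No stabilized library overlapped WT, and the log2 fold changes were 2.05 (SE 0.290, edgeR adjusted p = 0.00582) and 2.18 (SE 0.289, edgeR adjusted p = 0.00214). Net1, an exchange factor for RhoA, rose from 5.81 and 3.66 to 133 and 129 TPM in AP and from 4.83 and 1.82 to 367 and 401 TPM in PP, where WT C held 129 and 212. Its log2 fold changes were 3.65 (SE 0.562, edgeR adjusted p = 0.0114) and 5.66 (SE 0.617, edgeR adjusted p = 0.000474), and its member was also a peak in both stabilized C libraries (3.47 and 3.17).

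Col18a1 and Vcam1 were also called higher in both lobes. Col18a1, the basement membrane collagen from which endostatin is cut, had 3 members, 2 of them in introns. Its intronic member at chr10:77134291-77134947 had fold enrichments of 5.90, 5.67, 4.28 and 3.95 over the 4 libraries, and its upstream member was also a peak in stabilized C (3.17 and 3.90). Col18a1 RNA was at 0.0523 and 0.0126 TPM in WT AP, 8.86 and 18.4 in stabilized AP, 8.37 and 0.804 in WT PP and 40.9 and 55.4 in stabilized PP. The lobes did not overlap between genotypes, WT C held 9.87 and 6.20 TPM, and the log2 fold changes were 10.09 (SE 0.900, edgeR adjusted p = 0.000106) and 5.76 (SE 0.678, edgeR adjusted p = 0.000771). Vcam1, which binds leukocyte integrins, was at 0 and 0.00657 TPM in WT AP, 4.83 and 14.7 in stabilized AP, 4.93 and 7.10 in WT PP and 20.6 and 13.1 in stabilized PP, with 2 members upstream. WT AP held 1 Vcam1 count in all, a count ratio of 2369 (exact 95% interval 425 to 93638, edgeR adjusted p = 1.25e-05), while in PP the log2 fold change was 2.52 (SE 0.415, edgeR adjusted p = 0.00993).

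Immune genes were also among those higher in both lobes, and some markers of macrophages moved with them. H2-Aa and H2-Eb1, chains of the MHC class II molecules that present antigen, share the member chr17:34257628-34258243 at the promoter of H2-Ab1 (6.34, 7.75, 5.56 and 4.40). H2-Aa rose from 18.8 and 12.2 to 398 and 354 TPM in AP and from 35.4 and 26.3 to 455 and 333 TPM in PP, with log2 fold changes of 4.62 (SE 0.507, edgeR adjusted p = 0.000864) and 4.46 (SE 0.504, edgeR adjusted p = 0.000561). H2-Eb1 was listed with no count in WT AP and at 281 and 237 TPM in stabilized AP, at least 7285-fold higher against a floor of 3 counts over the group (edgeR adjusted p = 0.00235). In PP it went from 0.291 and 0.146 to 225 and 189 TPM. In GFP-negative cells the H2-Eb1 values also did not overlap, with 3.05 and 1.77 TPM in WT AP, 11.3 or more in both stabilized AP libraries, 0 and 0 in WT PP and 16.2 and 2.13 in stabilized PP, but neither lobe passed the test (edgeR adjusted p = 0.571 and 0.0676). Mpeg1, a pore-forming protein of macrophages, was at 0.269 and 0 TPM in WT AP, 13.4 and 23.5 in stabilized AP, 0.00653 and 0 in WT PP and 26.3 and 16.8 in stabilized PP (edgeR adjusted p = 0.0470 and 0.00472). Csf2rb2, a receptor chain for interleukin 3, and Ptgs2, the inducible cyclooxygenase, went from at most 0.0533 TPM in every WT pituitary library to between 1.04 and 5.36 TPM in stabilized ones. Their edgeR adjusted p was 0.0433 and 0.0226 in AP and 0.0364 and 0.0195 in PP. Both were also found in WT C, Csf2rb2 at 4.97 and 0.872 TPM and Ptgs2 at 3.71 and 8.98 TPM. In stabilized C they were lower, at 0.0960 and 0.508 TPM and at 1.36 and 0.794 TPM. The summed TPM of the macrophage and microglia markers was 20.4 to 23.1 in WT and 158 to 218 in stabilized AP, and 1.16 to 7.39 in WT and 179 to 216 in stabilized PP. Of 9 such markers tested, C1qb was called higher in AP and C1qa, C1qb and Csf1r in PP, while Cd163 was at or near 0. Among 10 of these markers, 2 and 2 had a kept ATAC peak within 1 kb of their start in the stabilized AP libraries and 0 and 3 in the stabilized PP libraries, against 0 in every WT and stabilized C library. Their part in these genes and in the members beside them was not tested.

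Rps18, a protein of the small ribosomal subunit, was called higher in AP, PP and C. In AP its log2 fold change was 3.54 (SE 0.467, edgeR adjusted p = 0.00356), with 317 and 311 TPM in the stabilized libraries. In PP it was at 0.770 and 1.95 TPM in WT and 284 and 291 in stabilized ECs. Ribosomal protein genes have many near-identical pseudogene copies, so its estimated counts are uncertain. It was also higher in every stabilized GFP-negative library than in WT, with 12.6 and 1.06 against 228 and 389 TPM in AP and 0 and 0.903 against 185 and 222 TPM in PP, though edgeR gave adjusted p = 0.418 and 0.0580. In GFP-negative cells of C it was at 0 and 3.03 TPM in WT and 30.9 and 56.2 in stabilized mice. Ribosome-bound RNA, where the controls also carried Pdgfb-CreER, gave no call for Rps18. Its log2 fold change there was -0.17 in choroid plexus (edgeR adjusted p = 0.932) and -0.03 in cortex (edgeR adjusted p = 0.998).

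**Figure D5:**
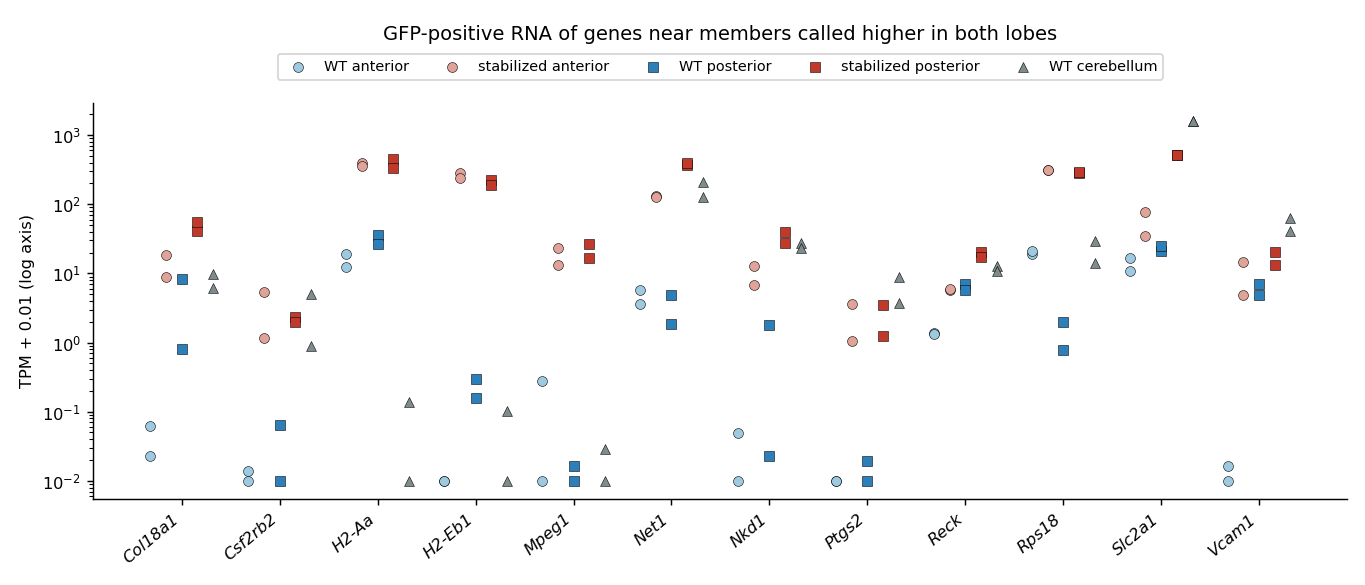
TPM of the genes near members called higher in both lobes, one point per sorted EC library of WT and stabilized AP and PP and of WT C, on a log axis with a small constant added so that 0 can be drawn. Within each lobe the stabilized libraries lie above the WT libraries for each gene, and Slc2a1 in WT C (1579 and 1625 TPM) lies above every pituitary value.

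Other genes were called in one lobe, which does not show that the lobes differed. The test of that difference called 6 of 1102 genes near members (0.544%) against 0.128% of all genes. The genes near members called higher in AP and not in PP were Fam13c, Lrp1 and Fzd6, none of them among those 6. Lrp1, an endocytic receptor of the LDL receptor family, rose from 3.18 and 4.34 to 24.3 and 10.8 TPM (log2 fold change 2.48, SE 0.419, edgeR adjusted p = 0.0211). Fzd6, a Frizzled receptor for Wnt ligands, rose from 0.647 and 0.797 to 2.08 and 6.78 TPM in AP (2.31, SE 0.433, edgeR adjusted p = 0.0380). This value was 2.93 without stabilized AP replicate 1 and 1.29 without stabilized AP replicate 2. In PP Fzd6 was at 15.3 and 15.1 TPM in WT and 8.96 and 7.68 in stabilized ECs, with a log2 fold change of -0.31 (edgeR adjusted p = 0.802). In PP the 5 with the highest fitted log2 fold change, which for a gene with no WT count depends on the fit and gives no order of size, were Adgrf1, Nxpe4, Pid1, Ifi207 and Pllp. The first 4 had no count in WT PP, and Nxpe4 at 5.25 and 5.39 TPM was at least 561-fold higher against a floor of 3 counts (edgeR adjusted p = 0.0133). Pllp, the membrane proteolipid plasmolipin, was at 0.0442 and 0.0349 TPM in WT PP and at 18.8 and 13.9 in stabilized PP, which did not overlap.

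Among barrier genes near members, 5 were called higher in PP and 2 in AP. Of 45 genes in a list of brain EC barrier genes, 7 lay near a member (Slc2a1, Slc22a8, Tjp1, Vwa1, Bsg, Reck and Sgms1). Over the whole list, 27 of 45 were called higher in PP and 12 of 45 in AP. The list was chosen with these data known and is no independent evidence of its direction. Slc22a8, an organic anion transporter of the barrier, was at 0.0940 and 0 TPM in WT PP and at 7.33 and 6.13 in stabilized PP (log2 fold change 8.12, SE 0.681, edgeR adjusted p = 5.60e-05), against 158 and 168 TPM in WT C. All of its WT PP counts came from replicate 1, and the value was 13.73 without that library, fitted against no count, and 7.42 without replicate 2. Bsg, the partner of the monocarboxylate transporters, rose from 120 and 73.4 to 207 and 175 TPM in PP (1.46, SE 0.299, edgeR adjusted p = 0.0306). Sgms1, which makes sphingomyelin, had a log2 fold change of 1.97 in PP on estimated counts (SE 0.283, edgeR adjusted p = 0.00382), but its TPM overlapped, with 102 and 46.4 in WT and 67.7 and 71.4 in stabilized PP. TPM divides by the length of the transcripts used, and counts do not.

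Of 34 Wnt targets and feedback genes, 6 lay near a member (Nkd1, Nkd2, Znrf3, Dkk2, Fzd6 and Ctnnb1). In AP 2 of the 6 were called higher and in PP 1, against 5 of 33 and 7 of 33 tested over the whole list. Of 26 genes of fenestrated and permeable ECs, only Plpp3, a lipid phosphate phosphatase, lay near a member. Plpp3 fell from 721 and 383 to 78.3 and 87.6 TPM in PP (log2 fold change -1.85, SE 0.359, edgeR adjusted p = 0.0243). The other genes lower in PP were Col4a2, Map4k4, Ankrd11 and Ece1. Col4a2, a chain of basement membrane collagen, went from 683 and 1367 to 126 and 135 TPM (-2.17, SE 0.427, edgeR adjusted p = 0.0252). Ece1, the endothelin-converting enzyme, went from 450 and 192 to 70.8 and 91.7 TPM (-1.17, SE 0.253, edgeR adjusted p = 0.0370). Both stabilized PP values lay below both WT values in all of these, as they did in 33.3% of all genes tested. Summed TPM of endothelial markers was 4172 to 5907 in WT PP and 1819 to 2118 in stabilized PP, and 2603 to 4332 against 2615 to 2858 in AP. The part of that shift in the genes lower in PP was not tested.

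Some of these calls rested on single libraries or on the wider fit. Leaving out 1 library also moved the size of called changes: the log2 fold change of Net1 was 4.91 in AP without WT AP replicate 2 and ranged from 5.23 to 6.31 in PP, that of Col18a1 ranged from 9.52 to 11.03 in AP and from 5.04 to 7.38 in PP, that of Rps18 from 7.91 to 9.67 in PP, and that of H2-Aa from 4.18 to 5.30 in AP. For Mpeg1 in AP it ranged from 6.17 to 14.77, the highest being fitted against no WT count, without WT replicate 1. In AP the calls of Ptgs2, Csf2rb2, Lrp1 and Fzd6 were lost without either WT replicate, and those of Fam13c and Fzd6 also without stabilized replicate 2, Fam13c without WT replicate 2 too. In PP those of Csf2rb2, Adgrf1, Ankrd11, Ece1 and Map4k4 were lost without WT replicate 2 or either stabilized replicate, those of Col4a2 and Bsg without WT replicate 2 or stabilized replicate 1, those of Pid1 and Ifi207 without WT replicate 2, and that of Plpp3 without stabilized replicate 1. A fit of the compared groups alone, with fewer libraries to estimate the spread, ended the AP calls of Mpeg1, Ptgs2, Csf2rb2, Net1, Slc2a1, Reck, Fam13c and Fzd6 and the PP calls of Ptgs2, Csf2rb2, Col18a1, Nkd1, Reck, Adgrf1, Ifi207, Sgms1, Bsg and the 5 lower genes. The highest adjusted p over the alternatives for these genes was 0.388, for Ece1 in PP. Calls of H2-Eb1, H2-Aa, Vcam1 and Rps18 in both lobes were kept in 9 of 9 alternative fits.

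At the 34 promoters with a member, RNA mostly did not pass the test. Of 32 such genes tested, edgeR called none higher in AP, where 0.441% of all genes were. In PP it called 2 of the 32, Tpd52 and Adgrf1, where 1.25% of all genes were. Both stabilized libraries were above both WT libraries in 14 of 32 in AP, where 25.8% of all genes were, and in 11 of 32 in PP, where 13.2% were, with 10 in both lobes. Both stabilized libraries were below both WT libraries in 1 of 32 in AP, where 14.6% of all genes were, and in 7 of 32 in PP, where 33.3% were, Foxn3 and Slc12a7 among the latter. None of the next 3 genes, picked after their values were seen, was called in either lobe. Slc11a1, a metal transporter of phagocytes, was listed at 0 in all 4 WT pituitary libraries and at 5.95 and 5.82 TPM in stabilized AP and 11.8 and 5.65 in stabilized PP. Ncf4, a subunit of the phagocyte oxidase, was at 0 in WT and at 10.6 and 5.09 TPM in stabilized AP and 2.20 and 10.9 in stabilized PP. H2-Ab1, the MHC class II beta chain, was at 14.3 and 23.3 TPM in WT and 275 and 178 in stabilized AP, with edgeR adjusted p = 0.435. Some of the macrophage markers given above moved with these too, and their part was not tested.

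Of the 10 tested genes near 3 or more members, 1 (10.0%) was called higher in each lobe, against 0.441% of all genes in AP and 1.25% in PP. The 4 members of chromosome 6 lay within 100 kb of Inmt, Mindy4, Gm25458, Gm44073 and Gm34358, of which only Inmt and Mindy4 had counts to test, and neither was called in either lobe. Nr3c2, with 3 members that each hold TCF/LEF letters, was at 1.61 and 3.13 TPM in WT AP and 6.68 and 17.6 in stabilized AP (edgeR adjusted p = 0.777). In PP it was at 2.63 and 28.1 TPM in WT and 11.3 and 12.2 in stabilized ECs, where the groups overlapped. Col18a1 was the gene with 3 members that was called in both lobes.

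The same genes were tested in the other ECs. In C, where the stabilized ECs also carried 100 of the members as peaks, 4 of 1102 genes near members (0.363%) were called higher against 0.0670% of all genes, namely Cdc14a, Nxpe4, Rps18 and Srgap3. Another 12 (1.09%) were called lower against 0.581%. Among ribosome-bound RNA, 14 of 1041 genes near members (1.34%) were higher in stabilized choroid plexus ECs against 0.656% of 16775 tested, and 54 (5.19%) in cortex against 3.65%. Both numbers hang on single libraries, with 4 in choroid plexus without WT replicate 1, where the share near members (0.353%) was level with that of all genes (0.352%), and 20 or 23 in cortex without stabilized replicate 1 or 2. In C the count was 8 without either stabilized replicate. Genes called higher in both pituitary lobes and in choroid plexus were Net1, Nkd1, Reck and Slc2a1. In choroid plexus the log2 fold change of Nkd1 was 6.31 (edgeR adjusted p = 0.00194), that of Net1 3.85 (0.00146), that of Slc2a1 2.97 (0.0250) and that of Reck 2.03 (0.0258). Nkd1 and Net1 were also called higher in cortex, by 2.51 (edgeR adjusted p = 0.0118) and 1.30 (0.0261) on the log2 scale.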

How the data were processed

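ATAC-seq and RNA-seq files were used as deposited. The authors aligned ATAC-seq reads with Bowtie2 2.3.2 and called peaks per library with MACS2 2.1.1.20160309, and the deposited peak lists give fold enrichment, a ratio to local background, and −log10 q. The authors quantified RNA with Salmon 0.10.2, which gives each deposited estimated count and TPM per transcript. Gene values are sums over the transcripts of each gene in GENCODE M21 (GRCm38), and 0.119 to 0.385% of counts had no match. Depth was 17260078 to 33458597 estimated counts in GFP-positive libraries and 6409013 to 21399125 in ribosome-bound ones. Input libraries were not used here. After rounding, genes were compared by the quasi-likelihood test of edgeR 4.0.16 in R 4.3.3, with TMM scaling, the filterByExpr filter and Benjamini-Hochberg adjustment. GFP-positive, GFP-negative and bound libraries had separate fits. Each SE printed with a log2 fold change, or with a difference between the lobes, was worked back from that value and its quasi-likelihood test. Such an SE restates the test and is no separate estimate of error. Interval bounds cover counting error only.

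Named were the 10 members with the highest lowest fold enrichment and their nearest genes, genes near members called higher in both lobes, the 5 with the largest fitted change in 1 lobe or lower, the 5 with most members, and list genes; Cdc14a, Cpe, Srgap3 and the promoter genes were added after their values were seen. The members, lists and tests were chosen with earlier results of these data known. Alternatives were another normalization, no low-count filter, DESeq2 1.42.0, a replicate block, fewer groups, other windows and each replicate left out. Simulated data served to test the scripts.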

Additional observations from a re-analysis of the deposited data

Results flagged for a closer look

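For 6 of 1102 genes near members (0.544%, against 0.128% of all genes tested) the response to stabilization differed between the lobes by a test of the difference itself (edgeR, PP minus AP on the log2 scale, adjusted over all genes tested). Slc22a8 differed by 8.79 (SE 0.817, adjusted p = 0.00186), with 1.36 and 1.51 TPM in WT AP, 1.17 and 0.483 in stabilized AP, 0.0940 and 0 in WT PP and 7.33 and 6.13 in stabilized PP. Its value rests on WT PP replicate 1, which holds all its WT PP counts, and ranged from 8.09 to 14.39 over the alternatives. Slc2a1 differed by 3.91 (SE 0.473, adjusted p = 0.00494), being higher in both lobes and more so in PP. Srgap3, an inhibitor of Rac, differed by 7.38 (SE 0.802, adjusted p = 0.00246), with 3.31 and 0.997 TPM in WT AP, 2.67 and 2.34 in stabilized AP, 0.0826 and 0.0463 in WT PP and 4.63 and 6.40 in stabilized PP. Cpe, which trims peptide hormones, differed by 4.07 (SE 0.441, adjusted p = 0.00246), with 95.6 and 58.1 TPM in WT AP, 132 and 109 in stabilized AP, 80.1 and 28.5 in WT PP and 543 and 514 in stabilized PP. Rps18 differed by 5.09 (SE 0.672, adjusted p = 0.00971), and its counts are uncertain for the copies named above. Over the alternatives its value ranged from 4.36 to 6.12. Vcam1 differed the other way by -8.34 (SE 0.830, adjusted p = 0.00186), a value that rests on 1 count in the WT AP libraries and so on the prior count of the fit. Over the alternatives the Vcam1 value ranged from -10.39 to -7.48. Summed endocrine markers were 475 to 3359 TPM in WT PP and 347 to 809 in stabilized PP, and their part in the value of Cpe was not tested. All 6 kept an adjusted p under 0.05 with any one pituitary library left out and with a block for the pituitary pools. The number of such genes was 50 without WT PP replicate 1, 12 without WT AP replicate 2, and 17 and 16 without stabilized AP replicate 1 and 2.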

How the results depend on the processing

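With 2 libraries per group, single libraries carry much of the weight. The member list ranged from 383 to 1258 regions when libraries were left out, with 1258 without stabilized PP replicate 1 and 919 without WT AP replicate 2. The TCF/LEF share ranged from 14.5 to 31.6% in those lists; it was 18.5% within 50 bp of the summit (all regions 4.09%), 44.4% over the whole region (18.7%) and 13.3% for ATCAAAG alone (3.52%). Presence in stabilized C was 35.5% for 1 library or more and ranged from 12.4 to 35.0% with libraries left out (leaving out some pituitary or WT libraries here, and WT libraries for the motif share, was chosen after seeing the data).
Genes near members called higher, for AP, PP, C, choroid plexus and cortex in that order, numbered 15, 38, 4, 14 and 54. Without the filter on low counts they were 48, 72, 16, 45 and 86, and with DESeq2 55, 97, 13, 42 and 80. Within 20 kb they were 5, 15, 2, 9 and 25, and by nearest start of transcription 7, 23, 1, 9 and 22. Fitted on the compared groups alone, PP gave 20, C gave 1 and choroid plexus gave 26. With libraries left out the ranges were 15 to 29, 28 to 75, 3 to 8, 4 to 13 and 20 to 69. With a replicate block the numbers were 19, 42, 5, 11 and 45, though same-numbered WT and stabilized libraries did not deviate together (correlations of -0.039 to 0.021). AP and PP came from the same mice, but whether equal numbers mark one pool is not given in the sources used here. Same-numbered AP and PP libraries correlated by -0.013 in WT and 0.011 in stabilized mice. Genes that differed between the lobes numbered 6, 7 with a replicate block within pituitary pools, and 6 to 50 with libraries left out (chosen after seeing the data). Of alternatives for single named genes, 358 kept the call and 56 lost it, and none reversed.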
